A study of Mus musculus with 6 samples.

Results

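The SMN complex genes are the 9 genes Smn1, Gemin2, Ddx20, Gemin4, Gemin5, Gemin6, Gemin7, Gemin8 and Strap, taken by their symbols from tables of 39174 genes. All 9 were listed in each table, and 8 of them, all but Gemin4, reached the mean of 1 FPKM that a gene needed to enter the test of 14611 genes. FPKM scales the fragments of a gene by its length and by the library's depth, so levels of genes of different length can be set side by side. RNA-seq covered 6 libraries of primary mouse cultures labelled as motoneurons, a label that their marker genes, given below, go against, 3 of genotype Nmd+/+ and 3 of genotype Nmd-/-, all labelled CD-1. The Nmd-/- genotype carries the neuromuscular degeneration allele of Ighmbp2 on both chromosomes, and Nmd+/+ is the wild type. The labels give neither the age of the animals nor the days in culture, and no treatment. They do not tie the replicates to separate cultures or animals. Xist and the Y-linked Eif2s3y, given below, differed between libraries of each genotype, so neither genotype rests on a lone animal. Whether those alike in these genes did is not known, and the spread behind the p-values may be technical in part.

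The SMN complex assembles the small nuclear ribonucleoproteins of the spliceosome. In the cytoplasm it places a ring of Sm proteins on each small nuclear RNA, and loss of its core protein SMN causes spinal muscular atrophy. Mutation of IGHMBP2 causes another disease of spinal motoneurons, spinal muscular atrophy with respiratory distress, and the study's title names that disease. SMN binds Gemin2, which holds the Sm proteins, and Gemin8, which links SMN to the Gemin6 and Gemin7 dimer. Ddx20 (Gemin3) is a helicase of the DEAD-box family that binds Gemin4, Gemin5 recognises the small nuclear RNA, and Strap (unrip) is a WD-repeat protein that binds Gemin7.

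The promoters are shown first for the genes whose levels the results turn on: Smn1, the pair Gemin7 and Gemin8, whose levels moved together over the libraries, and Strap, whose level moved in the opposite direction to theirs. Each is the RefSeq window of GRCm38.p6 from 250 bases before to 50 bases after the start site, 5′ to 3′ on the gene's strand. For Smn1 it is chr13:100124605-100124904 on the plus strand, for Gemin7 chr7:19573294-19573593 on the minus strand, for Gemin8 chrX:166170204-166170503 on the plus strand, and for Strap chr6:137734832-137735131 on the plus strand. Capitals mark the ETS-type motif CGGAAG on either strand, a motif chosen after the sequences were seen.

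Smn1: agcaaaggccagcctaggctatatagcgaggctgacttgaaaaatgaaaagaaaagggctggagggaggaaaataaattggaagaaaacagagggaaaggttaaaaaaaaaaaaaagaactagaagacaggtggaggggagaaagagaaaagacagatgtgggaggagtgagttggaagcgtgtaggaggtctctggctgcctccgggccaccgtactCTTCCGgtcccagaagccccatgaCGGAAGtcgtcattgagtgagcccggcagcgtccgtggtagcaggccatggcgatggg

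Gemin7: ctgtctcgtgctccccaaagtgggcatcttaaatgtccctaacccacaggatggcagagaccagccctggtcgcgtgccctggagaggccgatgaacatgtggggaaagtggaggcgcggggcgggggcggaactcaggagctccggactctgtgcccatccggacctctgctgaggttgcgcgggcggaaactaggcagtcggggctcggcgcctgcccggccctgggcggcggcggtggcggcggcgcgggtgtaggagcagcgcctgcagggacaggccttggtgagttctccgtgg

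Gemin8: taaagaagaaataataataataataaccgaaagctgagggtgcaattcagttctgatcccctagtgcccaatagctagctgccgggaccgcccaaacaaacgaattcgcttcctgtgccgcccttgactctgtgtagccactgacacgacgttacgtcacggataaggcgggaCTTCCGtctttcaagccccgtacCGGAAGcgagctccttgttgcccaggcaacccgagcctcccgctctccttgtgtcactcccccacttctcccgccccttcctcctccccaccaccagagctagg

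Strap: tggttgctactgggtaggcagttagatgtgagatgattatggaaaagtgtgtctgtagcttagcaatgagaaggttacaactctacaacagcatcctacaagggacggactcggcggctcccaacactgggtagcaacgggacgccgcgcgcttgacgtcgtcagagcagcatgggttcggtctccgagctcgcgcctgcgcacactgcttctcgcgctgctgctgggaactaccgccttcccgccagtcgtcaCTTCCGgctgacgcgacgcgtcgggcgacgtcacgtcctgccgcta

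The motif occurred in 5 of the 9 members' windows (Smn1, Ddx20, Gemin4, Gemin8 and Strap) and in 16.9% of 32851 promoter windows of the same length. It stood at 2 places in Smn1, at 2 in Gemin8 and at 1 in Strap, and no match was found in the window of Gemin7. That window lies inside the gene as quantified, whose 5′ edge is at 19573823, and as annotated in GENCODE M21, with its edge at 19577595. Sequence around these edges was not searched. The further motifs below were searched on both strands, with overlaps allowed. The CRE-type letters TGACG occurred in 7 of 9 members (20.8% of all windows), the GC box GGGCGG in 6 of 9 (35.7%) and the NRF1-type letters GCGCNTGC in 3 of 9 (9.61%). The E-box CACGTG (7.15%) and TATAAA (13.6%) occurred in 0 of 9. The window of Gemin7 held 4 GC boxes and that of Gemin8 held 3. These are matches of letters in a window. The windows behind the shares were not matched to the members in GC content or expression, so the counts do not measure enrichment.

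The libraries held between 14474 and 14645 genes at 1 FPKM or more, and the width of the authors' intervals was equal to that of between 15446384 and 23138152 counted fragments per library. Ighmbp2, the mutated gene, measured 1.44, 1.303 and 1.09 FPKM in Nmd+/+ replicates 1 to 3 and 0.876, 0.788 and 0.598 FPKM in Nmd-/- replicates 1 to 3, with no overlap (limma adjusted p = 0.9997; exact two-sided permutation p = 0.1, the smallest that 3 against 3 allows). Of the 9 motoneuron markers in the files, 3 reached a mean of 1 FPKM. Their summed level lay between 17.3 and 31.2 FPKM in Nmd+/+ and between 15.2 and 26.4 FPKM in Nmd-/-. The defining markers were near 0: Chat did not exceed 0.0692 FPKM and Mnx1 did not exceed 0.0247 FPKM. Vim, a radial glia and astrocyte marker, measured 2380 to 4452 FPKM, Gad1, of inhibitory neurons, 46.9 to 117 FPKM, and the proliferation gene Mki67 58.3 to 92.9 FPKM. These values conflict with the labelled cell type, and the levels below are those of the whole culture. All 10 dividing cell markers reached 1 FPKM, with sums of 434.5 to 649 FPKM in Nmd+/+ and 543 to 658 FPKM in Nmd-/-. The neuron markers, the other spinal neuron markers and the radial glia and astrocyte markers summed to 858 to 1789, 130 to 287 and 3223 to 5027 FPKM. Vim made up most of the last sum. In the same list Fabp7 measured 283 to 564 FPKM, while Gfap did not exceed 3.91 FPKM. In such bulk RNA, fewer cells of a type and less RNA per cell cannot be told apart. Replicate 2 of both genotypes stood apart by fibroblast genes, with sums of 329 and 379 FPKM against 45.7 to 88.04 FPKM in the other 4 libraries. Vim was also the highest of each genotype in replicate 2 (3645 FPKM in Nmd+/+ and 4452 FPKM in Nmd-/-). The part of fibroblasts in the results below was not tested.

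The genes of the complex spanned a wide range of levels, and their order was nearly the same in every library. Strap was the highest in 6 of 6 libraries at a mean of 101.3 FPKM over the libraries, and Gemin4 the lowest in 6 of 6 at 0.56 FPKM. Between them came Gemin7 (52.1 FPKM), Smn1 (33.0 FPKM), Gemin8 (11.7 FPKM), Gemin6 (9.57 FPKM), Gemin2 (5.85 FPKM), Ddx20 (5.01 FPKM) and Gemin5 (3.77 FPKM). The ranges over the 6 libraries did not overlap between Strap and Gemin7, between Smn1 and Gemin8, between Ddx20 and Gemin5, or between Gemin5 and Gemin4. They did overlap for Gemin7 and Smn1, Gemin8 and Gemin6, Gemin6 and Gemin2, and Gemin2 and Ddx20. Within libraries, Gemin6 still lay above Gemin2 in 6 of 6, by 1.37 to 2.02 times, and the other 3 of these pairs kept their order in 5 of 6. Smn1 exceeded Gemin7 in Nmd+/+ replicate 2, Gemin6 exceeded Gemin8 in the same library, and Ddx20 exceeded Gemin2 in Nmd-/- replicate 3. Against all tested genes, Strap lay between the percentiles 91.7 and 94.7 of its library, Smn1 between 76.3 and 82.3, and Gemin5 between 18.8 and 24.8.

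**Figure D1:**
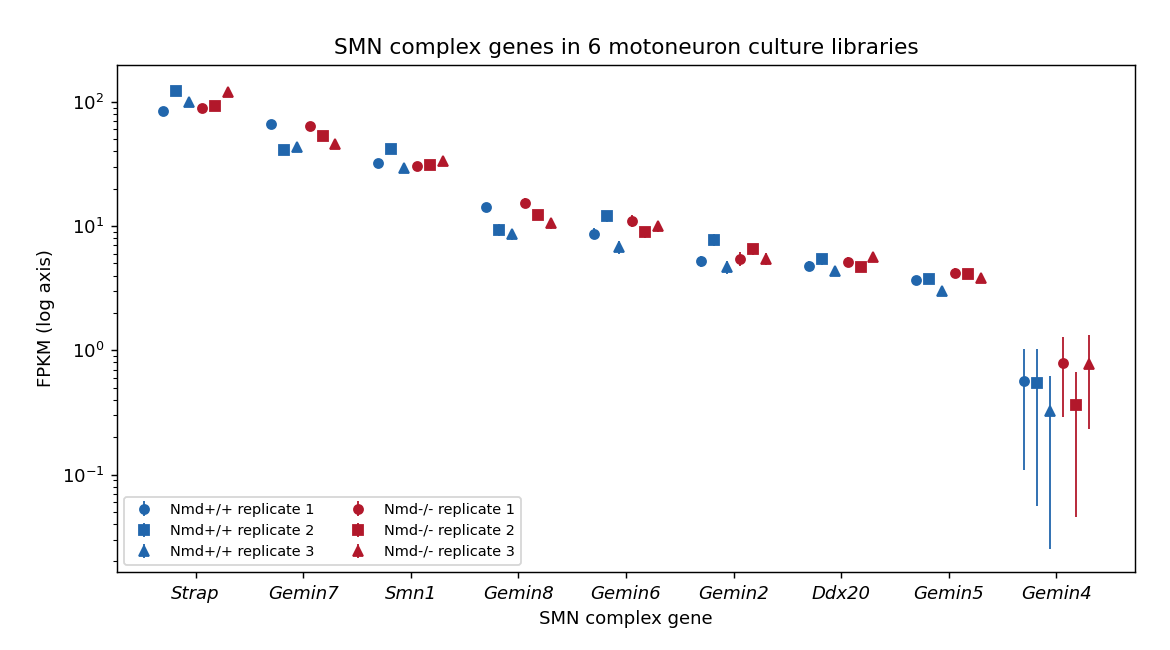
FPKM on a log axis of the 9 genes, ordered by mean level, in the 3 Nmd+/+ (blue) and 3 Nmd-/- (red) libraries, with bars for the authors' 95% intervals, which for most genes are hidden by the points. Strap was the highest in 6 of 6 libraries and Gemin4 the lowest, with intervals from 0.0252 to 1.33 FPKM.

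Smn1 (ENSMUSG00000021645, chromosome 13, 100124852 to 100137690, GRCm38) encodes SMN, the protein that the complex is named for. It measured 31.9, 41.4 and 29.3 FPKM in Nmd+/+ replicates 1 to 3 and 30.4, 31.3 and 33.5 FPKM in Nmd-/- replicates 1 to 3. Nmd+/+ replicate 2 was the highest, its interval (37.9 to 44.8 FPKM) lay apart from those of the other 5 libraries, and the genotypes overlapped. Nmd+/+ averaged 34.2 ± 6.3 FPKM and Nmd-/- averaged 31.7 ± 1.6 FPKM (SD, n = 3 each), a ratio of 0.927. The log2 difference was -0.09 (SE 0.16, 95% interval -0.46 to 0.27; limma adjusted p = 0.9997), within the spread between replicates. It turned to 0.05 once Nmd+/+ replicate 2 was left out, and to 0.06 once replicate 2 of both genotypes was. Besides its fibroblast genes, Nmd+/+ replicate 2 had the lowest summed level of 10 neuron markers (858 FPKM, against 883 to 1789 FPKM in the others) and the highest of the dividing cell markers within its genotype (649 FPKM). Whether these differences have a part in the level of Smn1 was not tested.

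Gemin2 (ENSMUSG00000060121, chromosome 12, 59013393 to 59028470) encodes the direct partner of SMN. It measured 5.19, 7.73 and 4.71 FPKM in Nmd+/+ and 5.45, 6.52 and 5.48 FPKM in Nmd-/-. Replicate 2 was the highest of each genotype, and the groups overlapped. Its log2 difference was 0.01 (SE 0.19, 95% interval -0.43 to 0.44; limma adjusted p = 0.9997), and its sign changed with median-of-ratios scaling (-0.01) and with quantile normalization (-0.02). The Smn1 level was between 4.79 and 6.23 times that of Gemin2, a range in which the genotypes overlapped (5.91 ± 0.49 in Nmd+/+ and 5.496 ± 0.669 in Nmd-/-, SD, n = 3 each). Among the 28 ratios between the 8 tested members, this was the third most constant, with a coefficient of variation of 10.005% over the 6 libraries against a median of 17.7%.

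The dimer partners Gemin6 and Gemin7 differed in level and in pattern. Gemin7 (ENSMUSG00000044709, chromosome 7, 19564946 to 19573823) measured 66.6, 40.7 and 43.5 FPKM in Nmd+/+ and 63.5, 52.6 and 45.6 FPKM in Nmd-/-. Replicate 1 was the highest of each genotype. Gemin6 (ENSMUSG00000055760, chromosome 17, 80224441 to 80228497) measured 8.71, 12.04 and 6.78 FPKM in Nmd+/+ and 11.02, 8.93 and 9.96 FPKM in Nmd-/-. Here Nmd+/+ replicate 2 was the highest and Nmd+/+ replicate 3 the lowest. The Gemin7 level was therefore 7.65 times that of Gemin6 in Nmd+/+ replicate 1 and 3.38 times in Nmd+/+ replicate 2. The Nmd-/- libraries lay between, at 5.77, 5.89 and 4.58 times. The log2 differences between genotypes were 0.12 for Gemin7 (SE 0.22, 95% interval -0.39 to 0.63) and 0.14 for Gemin6 (SE 0.20, 95% interval -0.34 to 0.61), both with limma adjusted p = 0.9997. Leaving out Nmd+/+ replicate 2 brought the Gemin7 difference to -0.01, and leaving out Nmd-/- replicate 1 to -0.002. The Gemin6 difference was -0.04 once Nmd+/+ replicate 3 was left out. In the annotation, 14.8% of the exon bases of Gemin7 also lie in exons of Zfp296 on the other strand, a gene listed at no more than 0.493 FPKM.

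Gemin8 (ENSMUSG00000040621, chromosome X, 166170454 to 166190512), the link between SMN and the dimer, followed Gemin7. It measured 14.2, 9.36 and 8.60 FPKM in Nmd+/+ and 15.3, 12.3 and 10.5 FPKM in Nmd-/-. Replicate 1 was again the highest of each genotype, and the Nmd-/- library was the higher in 3 of 3 replicate pairs while the groups overlapped. Nmd+/+ averaged 10.7 ± 3.0 FPKM and Nmd-/- averaged 12.7 ± 2.4 FPKM (SD, n = 3 each), a ratio of 1.19. The log2 difference was 0.24 (SE 0.21, 95% interval -0.26 to 0.74; limma adjusted p = 0.9997). With the replicate number as a block the interval narrowed to 0.00057 to 0.48, with an unadjusted p = 0.0496 and an adjusted p = 0.999 over all genes in limma. Gemin8 was the only tested member with an unadjusted p under 0.05 in that fit, where 3.13% of all genes had one and were higher in Nmd-/-. Median-of-ratios scaling moved that blocked interval to -0.02 to 0.46. In the fit without the block, the difference was 0.44 once Nmd+/+ replicate 1 was left out, 0.11 once Nmd+/+ replicate 3 or Nmd-/- replicate 1 was, and 0.36 without Nmd-/- replicate 3. The gene is X-linked, and Xist, the RNA of the inactive X, was near 0 in Nmd+/+ replicate 2 (0.155 FPKM) and Nmd-/- replicate 3 (0.143 FPKM) against 224.5 to 273 FPKM in the other 4 libraries. The same 2 libraries held 21.2 and 19.6 FPKM of Eif2s3y, and the other 4 were listed at 0. The 2 libraries without Xist held 9.36 and 10.5 FPKM of Gemin8, inside the range of the other 4, which was 8.60 to 15.3 FPKM.

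The ratio of Gemin7 to Gemin8 was the most constant of the 28, at 4.70, 4.35 and 5.05 in Nmd+/+ and 4.16, 4.28 and 4.35 in Nmd-/-. Its coefficient of variation was 7.43%, against 20.8% for Gemin7 and 22.8% for Gemin8 alone. Pearson's r between these genes on the log2(FPKM + 1) scale was 0.95 over the 6 libraries, which share replicate numbers and cell mixtures. It was the highest r of the 28 pairs of members and was not set against pairs of other genes. The least constant ratios were those of Strap to Gemin8 (34.4%) and Strap to Gemin7 (33.9%). For 18 of the 28 ratios the highest library exceeded the lowest by more than 1.5 times.

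Strap (ENSMUSG00000030224, chromosome 6, 137735078 to 137751932) encodes the WD-repeat protein, which also takes part in TGF-β signalling outside the complex. It measured 85.0, 123 and 99.0 FPKM in Nmd+/+ and 89.1, 91.7 and 121 FPKM in Nmd-/-. Nmd+/+ replicate 2 and Nmd-/- replicate 3 were the highest, and their intervals (116 to 129 and 115 to 126 FPKM) lay apart from those of the other 4 libraries. The genotypes overlapped, with a log2 difference of -0.02 (SE 0.19, 95% interval -0.46 to 0.42; limma adjusted p = 0.9997). The difference turned to 0.12 without Nmd+/+ replicate 2, 0.06 without Nmd-/- replicate 1, 0.04 without Nmd-/- replicate 2 and 0.18 without replicate 2 of both genotypes.

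Ddx20 (ENSMUSG00000027905, chromosome 3, 105678270 to 105687574), the helicase gene, was the most even member. It measured 4.81, 5.40 and 4.36 FPKM in Nmd+/+ and 5.17, 4.67 and 5.63 FPKM in Nmd-/-, a coefficient of variation of 9.51% over the 6 libraries. The highest library exceeded the lowest by 1.29 times. Of the 15 pairs of libraries, 3 had intervals that did not overlap, against 11 for Gemin7. The log2 difference was 0.07 (SE 0.13, 95% interval -0.24 to 0.39; limma adjusted p = 0.9997). It lay between 0.01 (Nmd+/+ replicate 3 left out) and 0.14 (Nmd+/+ replicate 2 left out), and at 0.20 without replicate 2 of both genotypes.

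Gemin5 (ENSMUSG00000037275, chromosome 11, 58120002 to 58168539), the reader of the small nuclear RNA, was the only tested member whose genotypes did not overlap. It measured 3.70, 3.74 and 3.01 FPKM in Nmd+/+ and 4.23, 4.14 and 3.79 FPKM in Nmd-/-. The lowest Nmd-/- library lay just above the highest Nmd+/+ library, inside the intervals of both (3.46 to 4.13 and 3.39 to 4.09 FPKM). Nmd+/+ averaged 3.48 ± 0.41 FPKM and Nmd-/- averaged 4.05 ± 0.23 FPKM (SD, n = 3 each), a ratio of 1.16, and the Nmd-/- library was the higher in 3 of 3 pairs. The log2 difference was 0.18 (SE 0.13, 95% interval -0.13 to 0.48; limma adjusted p = 0.9997; 0.999 with the replicate block), and 0.10 once Nmd+/+ replicate 3 was left out. All 3 Nmd-/- values lay above all 3 Nmd+/+ values for 1 of 8 members, against 1.76% of all genes, and below them for 0 of 8, against 0.91%.

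Gemin4 (ENSMUSG00000049396, chromosome 11, 76210571 to 76217664), the partner of Ddx20, could not be quantified with confidence. It was listed at 0.564, 0.544 and 0.322 FPKM in Nmd+/+ and at 0.789, 0.36 and 0.78 FPKM in Nmd-/-, with intervals of half-widths between 62.9% and 92.2% of the value. In width alone, such intervals equal those of between 4.71 and 10.1 counted fragments per library, against 259 to 1822 for the other members. These equivalents describe the width of the intervals and are not counts of reads. In the annotation, 89.8% of the exon bases of Gemin4 also lie in exons of Glod4 on the same strand, and 77.0% in exons of Fam57a on the other strand. Glod4 was listed at 37.6 to 48.1 FPKM and Fam57a at 8.96 to 11.7 FPKM. How the quantification divided shared fragments among these genes was not tested. The log2 difference between genotypes was 0.15 (exact permutation p = 0.3, two-sided, with 0.1 the smallest possible), and the intervals of all 15 pairs of libraries overlapped. It was 0.33 with a pseudocount of 0.1 (exact permutation p = 0.5) and lay between 0.07 and 0.28 when 1 library was left out.

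Across the members, then, none changed between genotypes by the test. Of the 8 tested, 0 had a limma adjusted p under 0.05, the same as for all genes (0% of 14611), and 0 had an unadjusted p under 0.05, against 0.445% of all genes. With the replicate block 0 passed as well, where 0% of all genes did. The means were higher in Nmd-/- for 6 of 8 members, against 56% of all genes, and for 5 of 8 with median-of-ratios scaling, against 48.7%. The median log2 difference was 0.10 for the members and 0.02 for all genes. Gemin5 and Gemin8 were higher in 3 of 3 replicate pairs, 2 of 8 members against 14.9% of all genes. By pair, the members' median was 0.08 in pair 1, -0.19 in pair 2 and 0.26 in pair 3, while the medians of all genes were -0.001, 0.02 and 0.04. In pair 2, Smn1, Gemin2, Ddx20, Gemin6 and Strap were lower in Nmd-/- and Gemin5, Gemin7 and Gemin8 higher. In pair 3 all 8 were higher in Nmd-/-. Pairs 2 and 3 each joined a library with Xist near 0 to one with high Xist, in opposite directions. Xist was 0.155 FPKM in Nmd+/+ and 259 FPKM in Nmd-/- in pair 2, and 273 and 0.143 FPKM in pair 3. The part of sex in the pair differences and in the replicate block was not tested. The 95% intervals bound what each fit could show. For Smn1 the fit on genotype alone allowed log2 differences from -0.46 to 0.27. With the replicate block, a pairing read from these values, the interval was -0.37 to 0.19.

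**Figure D2:**
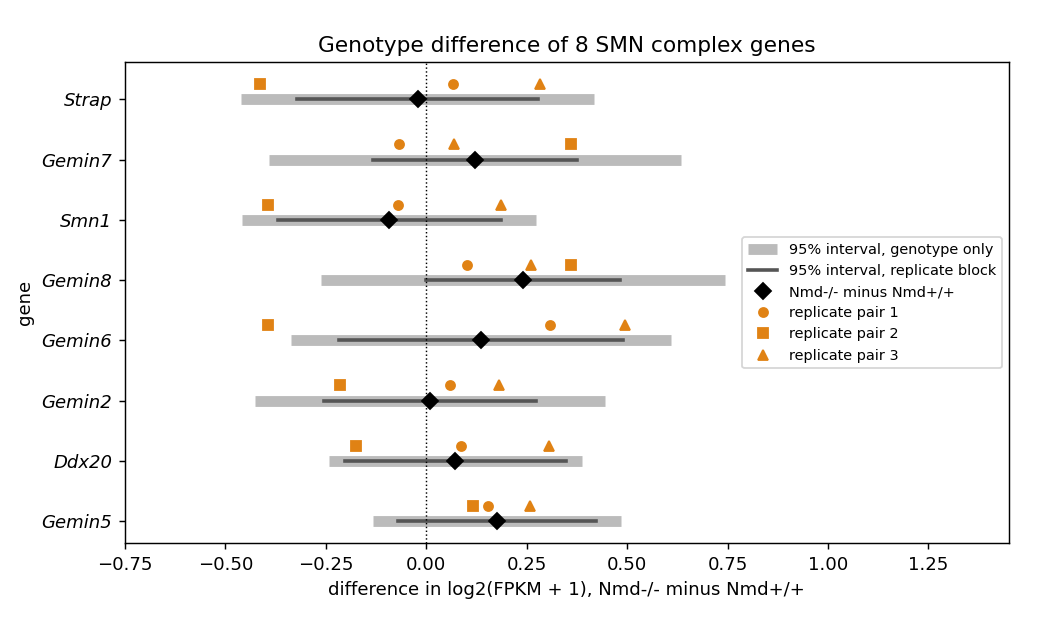
Difference in log2(FPKM + 1), Nmd-/- minus Nmd+/+, for the 8 tested members (diamonds), with 95% intervals from the fit on genotype alone (wide bars) and with the replicate block (thin lines), and the difference in each replicate pair (orange). The wide intervals of all 8 include 0, and pair 2 lies on the other side of 0 from pair 3 for Smn1, Gemin2, Ddx20, Gemin6 and Strap. Xist was near 0 only in the Nmd+/+ library of pair 2 and the Nmd-/- library of pair 3.

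The balance of the subunits was read as the share of each gene in the summed FPKM of the 9. These are shares of RNA and do not measure the proteins in the complex. Gemin4 was kept in the sum, though it could not be quantified with confidence. The sum lay between 200 and 243 FPKM per library, or between 0.0293% and 0.0351% of all FPKM. Strap, Gemin7 and Smn1 together held between 81.4% and 86.1% of it. Smn1 held 14.5%, 17.0% and 14.7% in Nmd+/+ and 13.5%, 14.7% and 14.2% in Nmd-/-. These shares overlapped between genotypes (15.4 ± 1.4% and 14.1 ± 0.6%, SD, n = 3 each; exact two-sided permutation p = 0.3). The shares of Gemin7 ranged from 16.7% to 30.2% and those of Strap from 38.5% to 51.1%, both extremes lying within Nmd+/+ for Gemin7. The share of Ddx20 stayed between 2.18% and 2.39%. Gemin5 held 1.57 ± 0.09% in Nmd+/+ and 1.81 ± 0.18% in Nmd-/-, and Gemin8 4.86 ± 1.37% and 5.68 ± 1.17% (SD, n = 3 each).

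**Figure D3:**
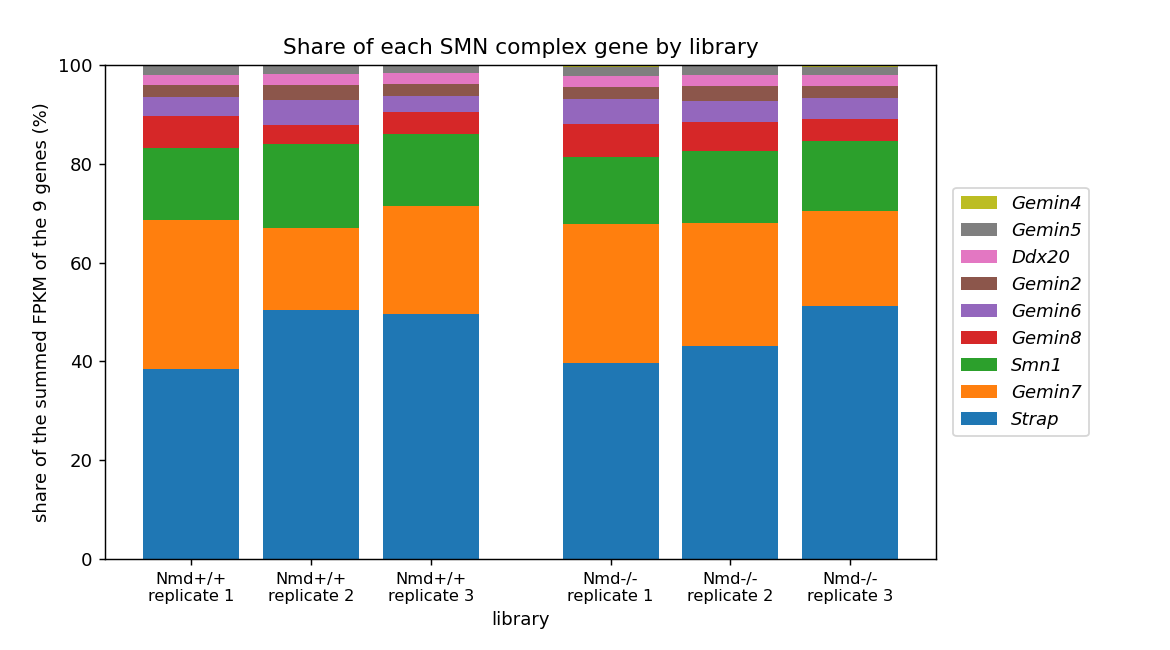
Share of each gene in the summed FPKM of the 9 genes (bars, in percent) in the 3 Nmd+/+ and 3 Nmd-/- libraries. Gemin7 held 30.2% and 28.2% in replicate 1 of the genotypes, the largest of its shares, and Strap held 38.5% and 39.6% there, the smallest of its shares.

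The replicate number held a large share of the variation of some members and a small share of others. Such shares arise in part without any effect, and more for the number, which has more levels than the genotype. Of the sum of squares of log2(FPKM + 1), the number held 83.3% for Gemin7, 82.9% for Gemin2 and 77.5% for Gemin8, but 34.6% for Smn1, 28.6% for Gemin6 and 0.301% for Ddx20. The median was 46.5% over the 8 members and 73.2% over all tested genes. The genotype held 50.4% for Gemin5, the most of any tested member, against a median of 5.23% over all genes. The highest 2 libraries were replicate 1 of both genotypes for Gemin7 and Gemin8, 2 of 8 members, as for 25.9% of all genes. They were Nmd+/+ replicate 2 and Nmd-/- replicate 3 for Smn1, Ddx20 and Strap, 3 of 8 members against 11.8% of all genes. These groupings were chosen after the values were seen and rest on the order of the values. Among Smn1, Ddx20 and Strap, only Strap had intervals of both libraries apart from the others. For Smn1, the interval of Nmd-/- replicate 3 (31.1 to 36.0 FPKM) overlapped those of all libraries but Nmd+/+ replicate 2. For Ddx20, that of Nmd+/+ replicate 2 (4.86 to 5.93 FPKM) overlapped that of Nmd-/- replicate 1 (4.67 to 5.67 FPKM). The same libraries, Nmd+/+ replicate 2 and Nmd-/- replicate 3, were those with Xist near 0 and with the highest dividing cell sums (649 and 658 FPKM, against 434.5 to 592 FPKM in the others). Smn1, Ddx20 and Strap lie on autosomes. Whether sex or the share of dividing cells has a part in their levels was not tested.

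**Figure D4:**
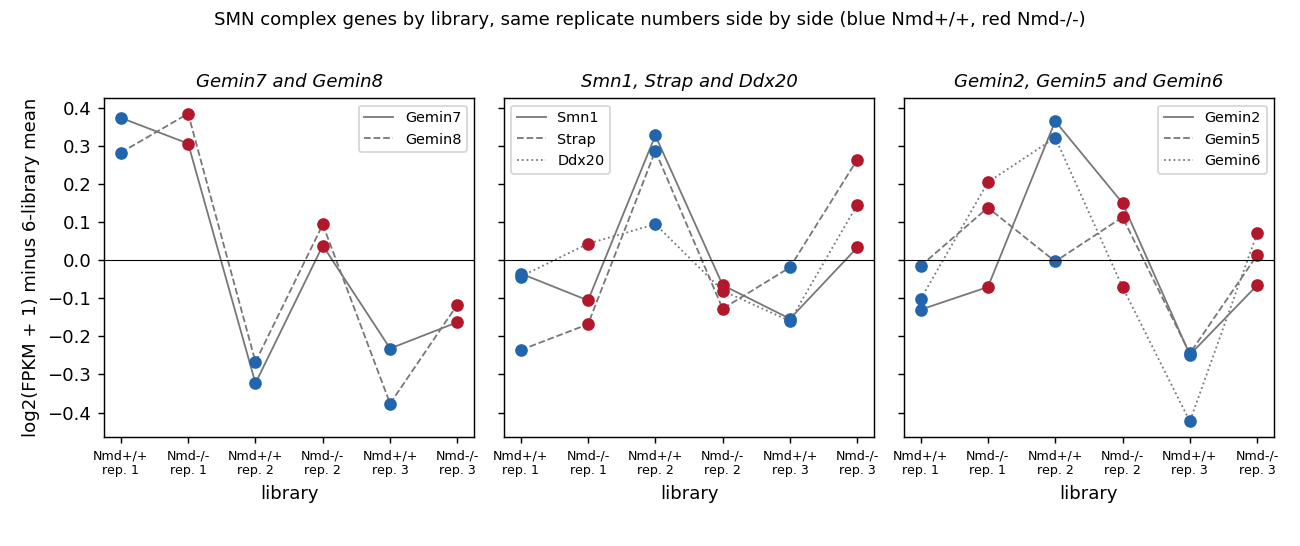
Level of 8 members in each library as log2(FPKM + 1) minus the mean of the 6 libraries, with the same replicate numbers side by side (blue Nmd+/+, red Nmd-/-). By order of values, Gemin7 and Gemin8 are highest in replicate 1 of both genotypes, and Smn1, Strap and Ddx20 in Nmd+/+ replicate 2 and Nmd-/- replicate 3. For Smn1, the interval of Nmd-/- replicate 3 overlaps those of all libraries but Nmd+/+ replicate 2.

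Likeness to Smn1 over the 6 libraries was described by Pearson's r of log2(FPKM + 1). Gemin2 was the most like it among the members (0.83), followed by Strap (0.72), Gemin6 (0.70) and Ddx20 (0.63), while r was 0.13 for Gemin5 (-0.03 with median-of-ratios scaling), -0.34 for Gemin8 and -0.49 for Gemin7. The order turned with Spearman's rho, which put Ddx20 first (0.77), before Gemin2 (0.71), Gemin6 (0.60) and Strap (0.49). In rank by Pearson's r among all tested genes, Gemin2 stood at 611 and Gemin7 at 10805. The most similar genes by that measure were the pseudogene Gm10698 (0.99; mean 59.0 FPKM), the ubiquitin-conjugating enzyme gene Ube2d3 (0.99; mean 244.7 FPKM) and Msantd4 (0.99; mean 13.98 FPKM). By Spearman's rho Ube2d3 remained level with the top (1), while Gm10698 stood at rank 22 and Msantd4 at rank 116. With median-of-ratios scaling Msantd4 stood at rank 10. Reads of a pseudogene such as Gm10698 may come from a near-identical gene, so its level is uncertain.

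The genes that act beside the complex were followed in 9 lists of 86 genes in all, each of which was tested. None passed in limma (0 of 86, smallest adjusted p 0.9997; 0 with the replicate block, smallest adjusted p 0.99), and 46 were higher and 40 lower in Nmd-/-. Over all tested genes 56% were higher, and 48.7% with median-of-ratios scaling. The median log2 difference of the 86 was 0.02, as over all genes.

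The Sm proteins, the cargo of the complex, were lower in Nmd-/- for 7 of 8 by their means, with a median of -0.04 and 0 passing. Several of these 7, Snrpd2 among them, were still higher in Nmd-/- in 2 of 3 pairs, all but pair 2. Snrpd2 was the most abundant, at 251 ± 27 FPKM in Nmd+/+ and 248 ± 21 FPKM in Nmd-/- (SD, n = 3 each), above every SMN complex gene. Snrpn, the neuronal Sm protein gene, measured 140 ± 36 and 119 ± 33 FPKM and was the lower in Nmd-/- in 3 of 3 pairs. Snrpn is a close copy of Snrpb and shares a transcript with Snurf, so the division of reads among them is uncertain. Snrpb, the exception in direction, measured 42.2 ± 8.4 and 46.7 ± 4.1 FPKM. Among the enzymes and carriers that methylate and deliver Sm proteins, 2 of 7 were higher and 5 lower (median -0.03). Wdr77, the WD-repeat partner of the methyltransferase Prmt5, measured 43.3, 52.2 and 34.6 FPKM in Nmd+/+ and 50.8, 56.4 and 54.4 FPKM in Nmd-/-. It was the higher in 3 of 3 pairs, as were 14.9% of all genes, and the groups overlapped. Its log2 difference of 0.32 (SE 0.17) had limma adjusted p = 0.9997, and 0.99 with the replicate block. The methyltransferase genes Prmt1 and Prmt7 measured 161 ± 9 and 159 ± 15 FPKM, and 10.1 ± 0.7 and 9.58 ± 0.56 FPKM.

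Factors of small nuclear RNA export, cap formation and import were higher for 4 of 8 (median 0.01), with the import receptor gene Kpnb1 at 53.2 ± 8.0 and 57.4 ± 2.7 FPKM (SD, n = 3 each) and the cap-binding gene Ncbp2 at 22.0 ± 3.7 and 23.5 ± 3.7 FPKM. Proteins specific to the spliceosomal particles were higher for 12 of 15 (median 0.08). In that list Prpf8, the core protein of the catalytic centre, had groups that did not overlap, at 80.2, 76.7 and 65.8 FPKM in Nmd+/+ and 85.7, 83.8 and 81.8 FPKM in Nmd-/-. Its log2 difference was 0.18 (SE 0.13; limma adjusted p = 0.9997), and it was the only one of the 86 genes without overlap. That is 1 of 86 higher, against 1.76% of all genes, and 0 of 86 lower, against 0.91%, so the lists held no more such genes than the background. Snrpa, of the U1 particle, measured 91.1 ± 16.5 and 103 ± 12 FPKM. Lsm ring proteins were higher for 6 of 10 (median 0.01), with Lsm2 at 102 ± 42 and 115 ± 30 FPKM. Like Gemin7 and Gemin8, Lsm2 was the highest in replicate 1 of both genotypes (150.2 and 149.8 FPKM). Lsm8 measured 32.9 ± 5.2 and 36.2 ± 1.9 FPKM, and Lsm7 22.9 ± 1.7 and 21.4 ± 1.2 FPKM. Minor spliceosome proteins were higher for 2 of 9 (median -0.03), with Zcrb1 at 48.7 ± 5.0 and 47.96 ± 1.89 FPKM, Zmat5 at 13.5 ± 3.1 and 12.4 ± 2.3 FPKM, and Zrsr1 at 7.93 ± 1.25 and 7.25 ± 0.90 FPKM.

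Genes listed under the Cajal body were higher for 9 of 11 (median 0.08). Nop10 measured 76.4 ± 4.0 and 76.5 ± 4.6 FPKM (SD, n = 3 each), Wrap53 3.68 ± 0.61 and 4.11 ± 0.83 FPKM, and Nhp2 41.6 ± 11.9 and 45.7 ± 8.2 FPKM. RNA-binding and actin-binding partners of SMN in axons were higher for 5 of 10 (median 0.02). Hnrnpr, which binds SMN and β-actin mRNA, measured 91.5 ± 5.7 and 84.4 ± 6.8 FPKM, and the actin-binding profilin gene Pfn1 424 ± 82 and 469 ± 37 FPKM. Fmr1, the fragile X gene, measured 16.6 ± 3.1 and 14.3 ± 2.0 FPKM and was lower in Nmd-/- in 3 of 3 pairs. The same held for other listed genes, among them Snrpn, Prmt7, Lsm7 and Zrsr1. The share of all genes lower in 3 of 3 pairs was not counted. Modifiers of spinal muscular atrophy were higher for 6 of 9 (median 0.08), with Chp1 at 34.8 ± 4.2 and 37.6 ± 3.0 FPKM and Coro1c at 66.0 ± 5.3 and 70.3 ± 3.3 FPKM. The ubiquitin-activating enzyme gene Uba1 measured 124 ± 17 and 131 ± 19 FPKM.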

How the data were processed

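The 6 libraries, 3 Nmd+/+ and 3 Nmd-/-, were analysed from the deposited FPKM per gene and their 95% interval bounds, which the authors obtained with Cufflinks according to the column layout (per the file headers). Tools named by the submitters' processing notes include Cufflinks 2.2.1, cutadapt 1.8 and SAMtools 1.3, with the build GRCm38. Annotation release and use of strand: not given in the sources used here.

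A gene was tested if its mean reached 1 FPKM and its status was accepted in each library. The test was limma 3.58.1 (R 4.3.3) with an intensity trend on log2(FPKM + 1), unscaled, with genotype as the only term. P-values are two-sided and Benjamini-Hochberg adjusted over 14611 genes, with a threshold of 0.05. This scale understates changes of low genes. The fit was tested on simulated data, with libraries drawn independently and planted changes larger than the differences of the members. Deviations shared by same-numbered libraries were not simulated. The lists were written with earlier results of these data known, while the members were not taken from these values. The partner ratios, library patterns, motifs and printed promoters were chosen after the values or sequences were seen. The naming rule took all members, Ighmbp2, Xist, the 3 genes most like Smn1, per list the 2 genes with the smallest p and the most abundant gene, and per marker list the first 2, printed where a result turns on them. Gfap was named outside this rule. Lsm8, Ice1 and Zpr1 were found by gene ID, and Slc18a3 was not matched. Equivalent fragments were read from the width of the intervals. Gene overlaps come from GENCODE M21.

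Same-numbered libraries deviated together from their group means (r across genes 0.82, 0.70 and 0.39 for numbers 1, 2 and 3). They were therefore taken as pairs from these values, with no label behind it. Correlations between different numbers were not computed, and the block reuses the values that gave the pairing. Numbers 2 and 3 each pair libraries that differ in Xist. The block by replicate number, other pseudocounts, filters and scalings, no trend, and left-out libraries were the alternatives.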

Additional observations from a re-analysis of the deposited data

How the results depend on the processing

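No call changed under the alternatives run. Of the genes that entered each of the 15 alternatives, members and companion genes included, 0 passed in limma. Gemin4 entered only with no filter on low values, and 7 members entered at a mean of at least 5 FPKM. At an unadjusted p under 0.05 in limma there were 65 genes, and between 20 and 711 under the alternatives, with 711 for the replicate block. The replicate block, the pairing by replicate number, changed no call: 0 genes passed and the smallest adjusted p was 0.074 over all genes and 0.999 over the members. Signs that changed were all of differences within the spread between replicates. Gemin2 was at -0.0113 with median-of-ratios scaling, alone or with the replicate block, and at -0.0164 with quantile normalization. Leaving out 1 library gave ranges of 0.109 to 0.442 for Gemin8, 0.0974 to 0.218 for Gemin5, 0.0107 to 0.138 for Ddx20, 0.0689 to 0.277 for Gemin4, -0.113 to 0.194 for Gemin2, -0.192 to 0.0485 for Smn1, -0.0103 to 0.338 for Gemin7, -0.0414 to 0.331 for Gemin6 and -0.159 to 0.117 for Strap. Without replicate 2 of both genotypes, Smn1 was at 0.0582, Strap at 0.175 and Gemin6 at 0.401. Gemin4 was at 0.331 with a pseudocount of 0.1. It had no value with quantile normalization or a mean of at least 5 FPKM, and Gemin5 none at that mean. The low level of Gemin4 and the number of libraries limit what could be seen: the median SE over the members was 0.19, and 0.12 with the block.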
